A study of Mus musculus with 2 samples.

Results

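The aminoacyl-tRNA synthetases were described in macrophages grown from C57BL/6J bone marrow and exposed for 120 minutes to lipid A at 100 ng/ml. Members were taken by gene symbol: a letter followed by ars, with or without a final 1 or 2, or the symbol Eprs, Farsa, Farsb or Tarsl2, and at least 1 protein-coding transcript. This gave 38 of the 55536 mouse genes in the deposited gene table, of which 21 encode cytosolic and 17 mitochondrial enzymes. The libraries were polyA-selected RNA-seq of whole-cell RNA, 1 group with 2 biological replicates that carry the same donor record, so the spread between them may be partly technical. One label field names the agent as lipid A, the lipid anchor of bacterial lipopolysaccharide that engages Tlr4, and another as lipoprotein A, entered as a protein. There was no unstimulated group, so no value below is a response to the agent, and with 2 libraries no test between groups was possible. Each library was quantified in 2 ways by the authors. The first quantification, a gene table with its transcript table, has the column names of RSEM, and the second, a transcript table, has those of kallisto. Both used the mm10 assembly with GENCODE M21 transcripts. Levels are TPM, transcript abundances scaled to transcript length and library total, so that they can be compared between genes.

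Aminoacyl-tRNA synthetases join each amino acid to its tRNA and so supply the ribosome. Cytosolic enzymes serve nuclear-encoded messages, while most mitochondrial enzymes come from separate nuclear genes and serve the few proteins made inside the organelle. Gars and Kars each give rise to both forms, and mitochondrial glutamine tRNA is charged by an indirect route. Several cytosolic enzymes are bound in a multi-synthetase complex with the scaffold proteins Aimp1, Aimp2 and Eef1e1. In macrophages Wars, the tryptophan enzyme, is known as an interferon-inducible gene, and the amino acid response factor Atf4 is known to act on many cytosolic synthetase genes.

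The libraries held 33272561 and 50266361 estimated counts over mouse genes in the first quantification and 37024988 and 57832294 in the second, for replicates 1 and 2. A level of 3 counts is 0.0902 and 0.0597 CPM (counts scaled to the library total) in the first. All 6 macrophage markers examined were at 1 TPM or more in both libraries, with summed levels of 18248 and 23843 TPM. Most of these sums was Lyz2, at 13517.5 and 19283.1 TPM. None of the T-cell, B-cell, NK-cell or stromal markers reached 1 TPM in both libraries. The summed level of 6 granulocyte markers was 514 TPM in replicate 1 and 67.1 TPM in replicate 2. That of 3 megakaryocyte markers was 918 and 236 TPM, nearly all of it Pf4. The other megakaryocyte markers were low, Itga2b at 2.25 and 0.36 TPM and Gp9 at 0.59 and 0 TPM. In bulk RNA fewer cells of a type and less RNA per cell cannot be told apart. Nuclear rRNA genes took 6.82% and 10.5% of all TPM. The part of these differences between the replicates in the values below was not tested.

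Each of the 21 cytosolic genes reached 1 TPM in both libraries, with 16 at 10 TPM or more and 12 at 20 TPM or more. Their median was 27.6 TPM in replicate 1 and 26.1 TPM in replicate 2, and that of the gene means was 26.5 TPM, with an SD of 1.08 between the medians of the libraries (n = 2). They ranged from 2.25 to 65.7 TPM in replicate 1 and from 1.48 to 82.6 TPM in replicate 2. Nars, the asparagine enzyme, was at 65.2 and 82.6 TPM, which made it the highest cytosolic gene by mean level. It was followed by the serine enzyme Sars at 62.7 and 62.6 TPM and the glutamine enzyme Qars at 65.7 and 55.6 TPM. Nars was above Sars in both libraries. In replicate 1 the authors' TPM intervals for the 2 genes overlapped, at 62.6 to 69.1 and 55.5 to 65.2, so the order is less certain there. Qars changed place, highest of the 3 in replicate 1 and lowest in replicate 2, so in the first quantification it was not separated from Nars or Sars. In the second it was below both in each library, at 46.7 and 38.7 TPM against 57.0 and 51.9 TPM for Sars. The coding transcripts of Qars summed to 17.7 and 18.1 TPM in the first quantification. Rars, the arginine enzyme, was at 56.6 and 56.0 TPM, within the range of Qars. Kars, the lysine enzyme, was at 50.5 and 46.8 TPM and Dars, the aspartate enzyme, at 44.6 and 39.1 TPM. In the first quantification the values of Kars and Dars did not overlap each other or those of the genes above them.

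Wars was in the middle of the cytosolic set, at 27.6 and 27.8 TPM (27.7 ± 0.18, n = 2). Its neighbours were the histidine enzyme Hars at 29.8 and 26.3 TPM and the alanine enzyme Aars at 28.2 and 24.8 TPM, and the ranges of both included those of Wars. The glycine enzyme Gars was at 33.3 and 27.0 TPM. Eprs, a fused enzyme for glutamate and proline, was at 24.5 and 26.1 TPM. None of these 5 genes could be ordered against all the others in both libraries.

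Cars, the cysteine enzyme, was at 15.2 and 12.6 TPM. The low end of the cytosolic set held Iars (isoleucine) at 12.2 and 10.4 TPM, Mars (methionine) at 13.1 and 9.83 TPM, Vars (valine) at 9.89 and 8.18 TPM, Yars (tyrosine) at 9.81 and 7.78 TPM and Tars (threonine) at 8.55 and 8.82 TPM. The lowest was Tarsl2, a second cytosolic threonine enzyme, at 2.25 and 1.48 TPM. Tarsl2 was below every other cytosolic gene in both libraries.

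Phenylalanine is charged in the cytosol by an enzyme of 2 kinds of subunit, Farsa and Farsb. Farsa was at 24.2 and 19.4 TPM and Farsb at 43.4 and 34.0 TPM. The Farsb message was 1.80 and 1.75 times the Farsa message in the first quantification, and 1.82 and 1.78 times in the second. The ratio of the subunits thus varied less between libraries and quantifications than either subunit did between libraries.

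The 8 enzymes of the multi-synthetase complex (Dars, Eprs, Iars, Kars, Lars, Mars, Qars and Rars) had median levels of 34.5 and 32.6 TPM. The other 13 cytosolic genes had medians of 27.6 and 24.8 TPM. Both lists spanned wide ranges that overlapped, from 12.2 to 65.7 TPM in the complex and from 2.25 to 65.2 TPM outside it in replicate 1. By the catalytic fold of the enzyme, the 9 cytosolic class I genes had medians of 14.1 and 12.6 TPM and the 11 class II genes 33.3 and 27.0 TPM, Eprs holding domains of both classes. These ranges overlapped too, since over all transcripts the class I genes Qars and Rars were among the 5 highest members of the cytosolic set.

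The mitochondrial genes were lower. Their median was 3.84 TPM in replicate 1 and 3.38 TPM in replicate 2 (3.62 for the gene means, with an SD of 0.325 between the libraries), and 14 of the 17 were at 1 TPM or more in both libraries. In the first quantification only 3 were at 10 TPM or more in both: Lars2, Fars2 and Iars2. Without Lars2, the 16 other genes summed to 81.7 and 70.0 TPM against 641 and 607 TPM for the 21 cytosolic genes. Fars2, the phenylalanine enzyme, was at 13.6 and 15.4 TPM and Iars2, the isoleucine enzyme, at 10.8 and 11.5 TPM. In the second quantification Fars2 was at 10.2 and 8.61 TPM and Iars2 at 9.83 and 9.93 TPM. Tars2 (threonine) was at 11.4 and 7.12 TPM, Rars2 (arginine) at 9.68 and 8.16 TPM and Cars2 (cysteine) at 8.81 and 6.19 TPM. The ranges of Tars2, Rars2 and Cars2 overlapped. Sars2 (serine), at 4.11 and 3.38 TPM, Hars2 (histidine), at 3.49 and 3.74 TPM, and Yars2 (tyrosine), at 3.84 and 2.98 TPM, followed, each overlapping the next. Nars2 (asparagine) was at 2.58 and 2.30 TPM and Vars2 (valine) at 2.62 and 1.65 TPM.

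The 3 members under 1 TPM were all mitochondrial. Ears2, the glutamate enzyme, had 44 and 23 estimated counts, Mars2, the methionine enzyme, 50 and 35, and Pars2, the proline enzyme, 26 and 38. Their levels were 0.94 and 0.28 TPM, 0.20 and 0.10 TPM, and 0.78 and 0.56 TPM. These genes were detected in both libraries at low counts. Scaled to library size, replicate 2 differed from replicate 1 by -1.36 for Ears2, -0.94 for Mars2 and 0.12 for Pars2 on the log2 scale. Aars2, at 1.00 and 1.41 TPM, and Wars2, at 1.77 and 1.29 TPM, lay just above that level.

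**Figure D1:**
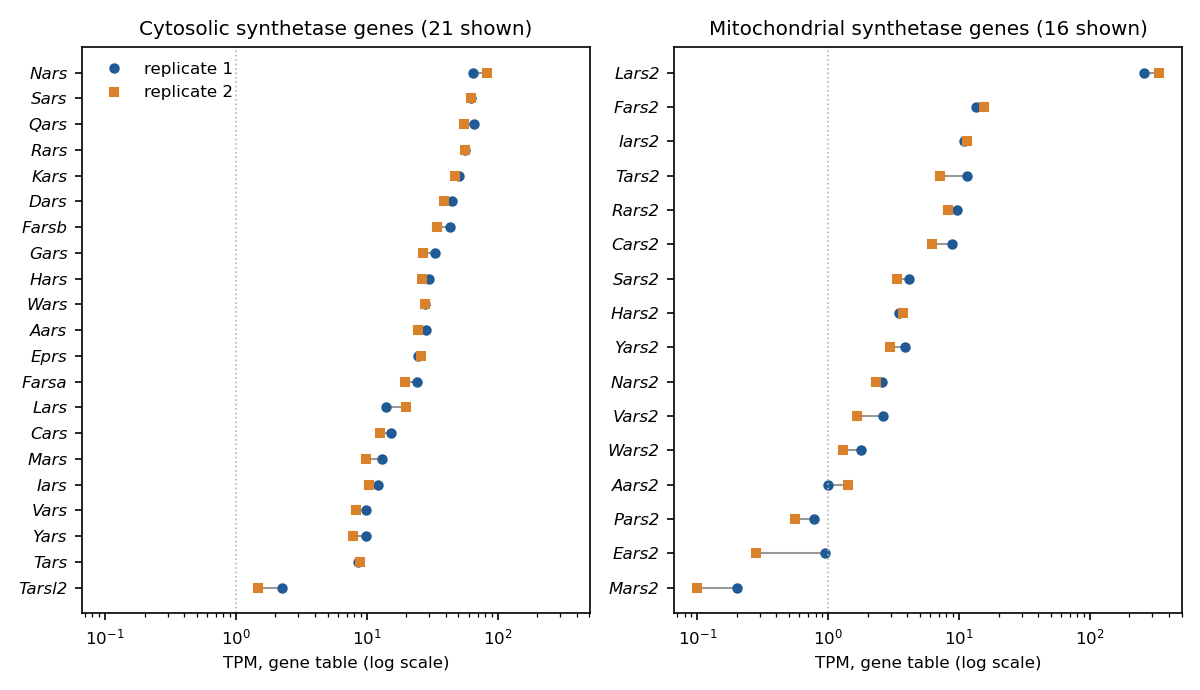
TPM of each synthetase gene in the gene table on a logarithmic axis, the 21 cytosolic genes on the left and 16 of the 17 mitochondrial genes on the right, with a circle for replicate 1, a square for replicate 2 and a line joining them. All 21 cytosolic genes lie above 1 TPM (dotted), 3 mitochondrial genes lie below it, and Lars2 is the highest member in both libraries.

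For 17 amino acids a cytosolic gene could be set beside a mitochondrial one, with the mean of Farsa and Farsb used for phenylalanine. The cytosolic gene was higher in both libraries for 14 of them. The median log2 ratio of cytosolic to mitochondrial level was 2.89 in replicate 1 and 2.81 in replicate 2, and 2.96 over the mean levels. The widest gap was for methionine, with Mars 13.1 and 9.83 TPM against Mars2 0.20 and 0.10 TPM, log2 ratios of 6.03 and 6.62. For glutamate the log2 ratios of Eprs to Ears2 were 4.71 and 6.54, and for proline those of Eprs to Pars2 were 4.97 and 5.54. Nars exceeded Nars2 by 4.66 and 5.17, Aars exceeded Aars2 by 4.82 and 4.13, and Wars exceeded Wars2 by 3.96 and 4.43 on the log2 scale. Over the mean levels, the denominators of the 3 widest gaps are the 3 members under 1 TPM, while in replicate 1 alanine had a wider gap than glutamate.

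The gap was small for tyrosine (Yars over Yars2, 1.35 and 1.38), phenylalanine (1.32 and 0.80) and cysteine (Cars over Cars2, 0.78 and 1.03). For isoleucine and threonine the direction differed between the libraries. Iars was at 12.2 TPM against 10.8 for Iars2 in replicate 1 and at 10.4 against 11.5 in replicate 2, log2 ratios of 0.18 and -0.15. Tars was at 8.55 against 11.4 TPM for Tars2 in replicate 1 and at 8.82 against 7.12 in replicate 2, log2 ratios of -0.42 and 0.31. The levels of these 2 pairs were therefore not separable at this spread. Leucine was the one amino acid with the mitochondrial gene higher in both libraries: Lars was at 14.1 and 19.9 TPM and Lars2 at 259 and 336 TPM, log2 ratios of -4.20 and -4.07.

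**Figure D2:**
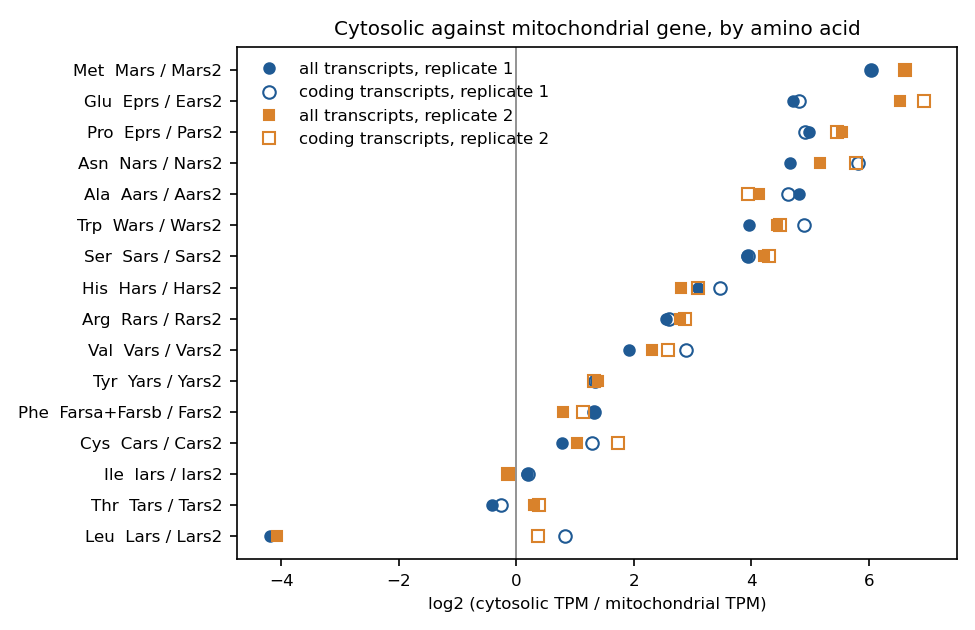
The log2 ratio of cytosolic to mitochondrial TPM for 16 of the 17 amino acids, with circles for replicate 1 and squares for replicate 2, filled for all transcripts of each gene and open for protein-coding transcripts only. Over all transcripts the methionine ratios are the highest, at 6.03 and 6.62, and the leucine ratio moves from -4.20 and -4.07 to 0.83 and 0.37 when only coding transcripts are summed.

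In the first quantification the leucine result rests on 1 transcript of Lars2, annotated as a target of nonsense-mediated decay. That pathway degrades messages with an early stop codon. Lars2 lies at chr9:123366927-123462666 on the plus strand (mm10). The coding transcript Lars2-201, of 3894 bases, was at 7.09 and 9.90 TPM in the first quantification, with 577 and 1188 estimated counts. Lars2-209, of 3756 bases, was at 252 and 326 TPM, with 19709 and 37621 counts. It took 97.2% and 97.0% of the TPM of the gene. Protein-coding transcripts made up 2.74% and 2.95% of Lars2. Summed over coding transcripts only, Lars was above Lars2 in both libraries, by 0.83 and 0.37 on the log2 scale. The authors' TPM intervals in replicate 1 were 4.52 to 9.20 for Lars2-201 and 11.1 to 12.8 for the coding Lars-201. In replicate 2 these intervals overlapped, at 7.08 to 12.7 and 11.6 to 13.1, so the order is less certain there.

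The transcripts Lars2-201 and Lars2-209 are nearly the same sequence. Both have 21 exons. Of the 3726 stretches of 31 bases in Lars2-209, 3691 also occur in Lars2-201. The 35 that do not occur there lie at the junction of exons 11 and 12, except for 2 at the 3′ end, where Lars2-209 is 2 bases longer. Exon 11 of Lars2-209 ends 4 bases later, at position 123432005 instead of 123432001, and its exon 12 starts 117 bases later, at 123436234 instead of 123436117. The stop codon of Lars2-209 ends at 123438215, against 123461678 in Lars2-201. Lars2-201 in turn has 173 stretches that do not occur in Lars2-209. The changes listed here do not account for the whole difference in length, 3894 against 3756 bases, and the rest was not located. The junctions are printed here because nearly all the stretches of Lars2-209 that do not occur in Lars2-201 lie across its junction. Reads across the junction were not counted. In Lars2-201 the capitals mark the start of exon 12, and in Lars2-209 they mark the 4 added bases of exon 11.
Lars2-201: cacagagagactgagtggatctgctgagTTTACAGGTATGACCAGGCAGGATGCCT
Lars2-209: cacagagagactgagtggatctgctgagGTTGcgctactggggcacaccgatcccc

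The quantifications of Lars2 differed from each other. The gene had 20289 and 38814 estimated counts in the first, which were 0.0610% and 0.0772% of each library, and 125381 and 294194 in the second, which were 0.339% and 0.509%. Its level was 259 and 336 TPM in the first and 1543 and 2474 TPM in the second, 5.96 and 7.36 times as high. On the log2 scale the second quantification was higher by 2.58 and 2.88. The gene TPM of the first also lay outside the interval that the authors' table gives for it, 245 to 252 in replicate 1 and 322 to 329 in replicate 2. In this Lars2 was one of 5 members in replicate 1 and 4 in replicate 2, with Qars, Vars and Vars2 in both libraries and Tars2 in replicate 1. Lars2 lay above its interval and the others lay below theirs.

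The difference was not in the coding transcript. Lars2-201 was at 7.67 and 8.79 TPM in the second quantification, against 7.09 and 9.90 TPM in the first. The ratio over coding transcripts was -0.046 on the log2 scale for the mean levels. Lars2-209 was at 1243 and 1727 TPM in the second quantification, with 119428 and 270960 counts. Lars2-205, a retained-intron transcript of 889 bases, was listed at 0 in the first quantification and was at 292 and 738 TPM in the second.

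**Figure D3:**
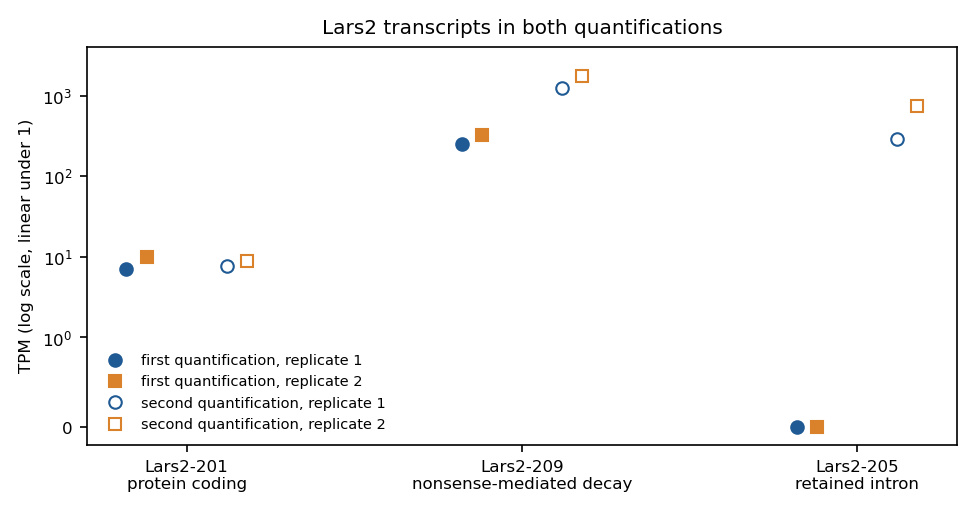
TPM of 3 Lars2 transcripts, with filled points for the first quantification and open points for the second, circles for replicate 1 and squares for replicate 2, on an axis that is logarithmic above 1 and linear below it. Lars2-201 lies between 7.09 and 9.90 TPM in all 4 values, while Lars2-209 and Lars2-205 are higher in the second quantification.

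Outside Lars2, the stretches of 31 bases in Lars2-209 occur in the transcripts of 2 other genes, in the last exon and 3′ of the Lars2-201 stop codon. AA474408, a gene model of the annotation class TEC, whose status is unsettled, shares 26 of them (chr9:123461942-123462083). Gm15564, an antisense gene, shares 22 (chr9:123462048-123462099). AA474408 had 1 and 6 counts in the first quantification and 27266 and 60765 in the second, where it was at 322 and 439 TPM. Gm15564 was listed at 0 in the first and had 189 and 296 counts in the second. Both were therefore higher in the second quantification, as Lars2 was; the part of the shared sequence in this was not tested. Over all Lars2 transcripts, Gm47414 and Gm36618 shared more stretches, 38 and 35, and had at most 10 counts in the first quantification and 37.3 in the second. AA474408 and Gm15564 were singled out for Lars2-209 after their values were seen.

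Among the members, Lars2 was alone in this. Of 10511 genes at a mean of 1 TPM or more in the first quantification, 35 were members. Lars2 was the 1 member of these 35 that was 2-fold or more higher in the second quantification in both libraries, against 0.78% of all genes. No member was 2-fold or more lower in both, against 1.47% of all genes. Lars2 was one of 14 genes with ratios at or above its own in both libraries. The 35 members had a median log2 ratio of -0.18 and -0.29, close to the -0.17 and -0.30 of all genes, and 32 of them were lower in the second quantification in both libraries. The next members from 0 were Fars2, at -0.40 and -0.84, Lars, at -0.22 and -0.78, and Qars, at -0.49 and -0.52.

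**Figure D4:**
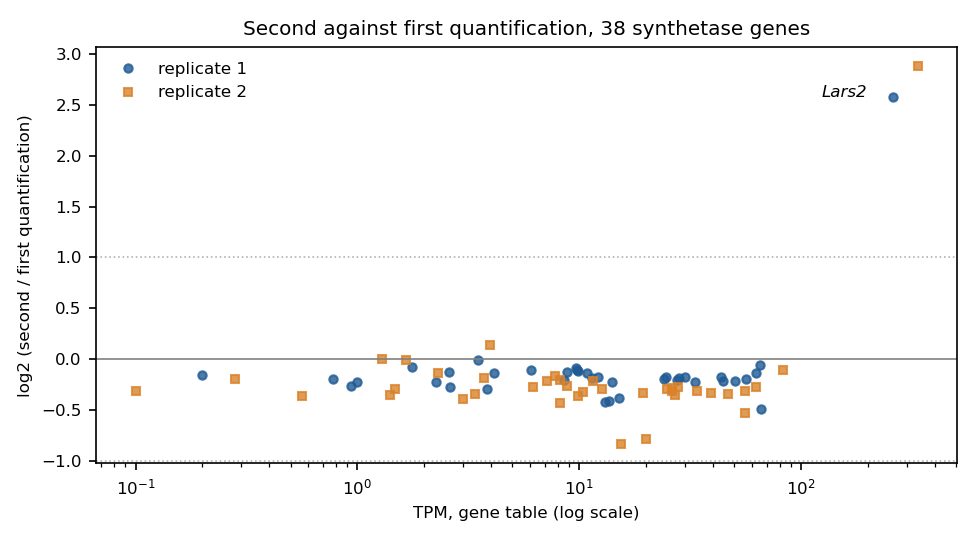
The log2 ratio of the second to the first quantification (vertical axis) against TPM in the gene table (logarithmic horizontal axis) for 38 synthetase genes, with circles for replicate 1, squares for replicate 2 and dotted lines at 2-fold. Lars2 stands at 2.58 and 2.88 and every other member lies within 2-fold in both libraries.

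Most of the other members were mainly coding message. In the first transcript table, protein-coding transcripts held a median of 97.9% and 97.2% of the TPM of the cytosolic genes and 88.3% and 88.9% of that of the mitochondrial genes. Coding transcripts held 90% or more in both libraries for 14 of the 21 cytosolic and 6 of the 17 mitochondrial genes. Qars stood apart in the cytosolic set. Its coding transcripts held 26.9% and 32.5%, and 35.7% and 39.1% in the second quantification. Its leading transcript, Qars-231 of 2398 bases, is also annotated as a target of nonsense-mediated decay and was at 32.9 and 25.1 TPM. The coding Qars-203, of 2374 bases, was at 12.5 and 14.8 TPM. Qars-231 also led in the second quantification, with 52.9% and 49.7% of the gene against 50.1% and 45.0% in the first. Both quantifications use the same reads, so this is no independent check. The split of the coding part differed between them. In the second, Qars-203 was at 6.06 and 7.45 TPM. The coding Qars-201 was at 1.47 and 0.95 TPM in the first and at 9.30 and 5.55 TPM in the second. By mean share in the first quantification, Lars2 and Qars were the 2 members whose leading transcript was not protein coding. In replicate 1, Nars2-203, annotated as a target of nonsense-mediated decay, took 45.5% of Nars2 against 43.7% for the coding Nars2-201. Nars2-203 was listed at 0 in replicate 2.

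**Figure D5:**
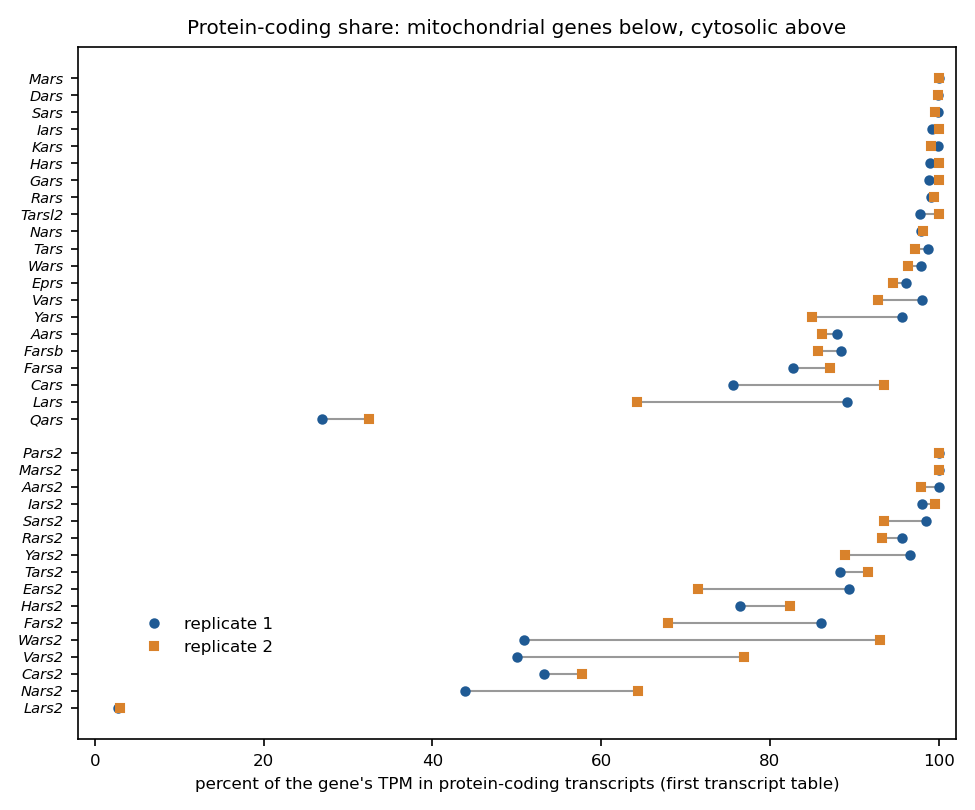
Percent of each gene's TPM in protein-coding transcripts of the first transcript table, with circles for replicate 1 and squares for replicate 2, 16 of the 17 mitochondrial genes in the lower block and cytosolic genes in the upper one. Qars (26.9% and 32.5%) is the lowest cytosolic gene and Lars2 (2.74% and 2.95%) the lowest member.

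Among the 14 members at a mean of 20 TPM or more with several transcripts, the leading transcript took a median of 85.1% of the gene, over 90% in 6 and under 50% in Qars. Wars was expressed mainly as Wars-201, a coding transcript that took 83.4% and 74.6%, with the coding Wars-205 at 7.86% and 18.9%. Nars was divided between the coding transcripts Nars-213, at 64.0% and 59.2%, and Nars-201, at 33.4% and 38.6%. Sars was led by Sars-202 at 61.5% and 54.7%, followed by Sars-204, a coding transcript of 637 bases, at 27.7% and 35.4%. Wars2, a low mitochondrial gene, was less even between the libraries, and its coding Wars2-201 took 50.8% and 93.4%. The leading transcript of Iars differed between the quantifications.

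Aars carries a further limit of annotation. Its main transcript Aars-201 (chr8:111033902-111057664, 5750 bases) was at 24.5 and 21.2 TPM. The whole of Exosc6-201, the single transcript of the RNA exosome subunit gene Exosc6 (chr8:111056339-111057664, 1326 bases), lies in it on the same strand, and all 1296 of its stretches of 31 bases occur in Aars-201. Exosc6 was listed at 0 counts in both libraries in both quantifications. Reads from the 2 genes cannot be told apart there, so the Aars level is uncertain by what Exosc6 contributes. Iars2 shared the largest portion of its sequence with other genes, 23.6%, mostly with Rab3gap2 on the other strand. Iars shared 14.7%, mostly with the processed pseudogene Gm4849, which had at most 3 counts, rounded. Exosc6, Rab3gap2 and Gm4849 were singled out after their values were seen. Exons of 14 members overlap genes of the other strand, and whether counting used strand is not given in the sources used here.

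Between the replicates most members lay within 1.5-fold, as did most genes. Replicate 2 was set against replicate 1 by log2 ratio of CPM with trimmed-mean scaling, for genes with a mean of 50 counts or more. Of the 35 members that passed, 0 were 2-fold apart, against 3.99% of the 10445 genes that passed. With 35 members, a count of 0 is close to that share. All genes were not matched to the members for count, and the part of read depth in the values below was not tested. The median ratio was -0.05 for the members and 0.03 for all genes, with 14 members higher and 21 lower in replicate 2. The median absolute ratio was 0.16 for the members and 0.24 for all genes. Within 1.5-fold lay 33 of 35 members and 85.4% of all genes. The members furthest apart were Aars2 (0.62), Tars2 (-0.59), Lars2 (0.51), Nars (0.47) and Tarsl2 (-0.47), of which Aars2 and Tarsl2 rest on 69 to 147 counts. In the second quantification the Lars2 ratio was 0.77.

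Other genes of the charging pathway were detected. All 15 were at 1 TPM or more in both libraries, with 5 higher and 10 lower in replicate 2. The scaffold Aimp1 was at 24.1 and 22.4 TPM, near the median of the cytosolic enzymes. The scaffolds Aimp2, at 8.59 and 6.32 TPM, and Eef1e1, at 13.6 and 5.73 TPM, were lower. For the indirect route to mitochondrial glutamine tRNA, the amidotransferase subunits Gatb and Gatc were at 8.08 and 6.85 and at 7.53 and 8.89 TPM, and Qrsl1 was at 1.60 and 1.27 TPM. Sepsecs, the synthase of the selenocysteine route, was at 3.02 and 2.83 TPM. The editing factors Aarsd1, Prorsd1, Dtd1 and Dtd2 were at 10.1 and 4.72, 8.98 and 11.0, 5.39 and 3.81, and 4.10 and 3.08 TPM. Mtfmt, which formylates the mitochondrial initiator methionine tRNA, was at 1.72 and 1.24 TPM. Pstk, a kinase of the selenocysteine route, was the 1 pathway gene 2-fold apart between the replicates in CPM, with a log2 ratio of 1.52 from 83.5 and 320 counts. Its TPM was nearly equal, 4.37 and 4.71, and the cause was not tested. Eef1a1, which delivers charged tRNA to the cytosolic ribosome, was at 4770 and 5805 TPM, and its mitochondrial counterpart Tufm at 41.7 and 29.5 TPM.

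Promoter sequence was read from RefSeq (GRCm38.p6), in windows from 250 bases before to 50 after the annotated start. All 38 members matched a RefSeq gene and 28 had a window, 14 cytosolic and 14 mitochondrial. Cars, Hars, Hars2, Lars, Nars, Pars2, Rars, Vars and Wars were among those with no entry. The word TGATGNAA, the core of the element bound by Atf4 with C/EBP factors, was searched on both strands. It was found in 5 of the 14 cytosolic windows and 0 of the 14 mitochondrial ones, and in 4.51% of 27025 genes. The 5 genes were Aars, Gars, Iars, Tars and Yars. Their mean levels spanned from 8.69 TPM for Tars to 30.1 TPM for Gars. These 5 genes lay in the lower and middle parts of the cytosolic order, with Iars, Tars and Yars among its lowest genes. Nars and Rars at the high end of that order, and Cars, Hars, Lars, Vars and Wars, could not be searched. The word CACGTG, an E-box, was found in 5 of the 28 members (Aars, Ears2, Farsb, Iars and Tars) and in 8.09% of all genes. The STAT word TTCNNNGAA was found in 3 members (Aars, Kars and Nars2) and in 9.55% of all genes. The interferon-stimulated response element was found in 1 member, Qars, and in 3.99% of all genes. A match is a description of these letters and was not tested as a binding site. A match to TGATGNAA in each of the 5 genes is shown on the strand of each gene, with the word or its reverse complement in capitals and positions counted from the RefSeq start.
Aars, 9, chr8:111033841-111033868, plus strand: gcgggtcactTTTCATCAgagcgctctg
Gars, -30, chr6:55037961-55037988, plus strand: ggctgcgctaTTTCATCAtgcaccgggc
Iars, 7, chr13:49682127-49682154, plus strand: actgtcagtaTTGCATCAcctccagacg
Tars, -15, chr15:11399656-11399683, minus strand: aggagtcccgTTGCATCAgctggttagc
Yars, 3, chr4:129189896-129189923, plus strand: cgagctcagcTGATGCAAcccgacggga

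In Aars, Iars and Tars the window also held CACGTG.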

How the data were processed

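PolyA-selected RNA-seq of 2 libraries of 1 group was used. Per the file headers, the authors quantified reads against GENCODE M21 transcripts of the mm10 assembly and deposited, for each library, estimated counts and TPM per gene and per transcript, with the percent of the gene in each transcript and interval bounds of TPM, which are treated as a signal, in the first tables, and a further table of estimated counts and TPM per transcript. Program versions and strand are not given in the sources used here. Spike-in and other identifiers that are not mouse genes, 0.141% and 0.134% of the counts, were left out. Transcript values of the second table were summed by gene. Gene counts were rounded and scaled with edgeR 4.0.16 (trimmed means), or with DESeq2 1.42.0 as an alternative, in R 4.3.3, and other steps used Python 3.11.15, numpy 2.4.6, pandas 2.3.3 and matplotlib 3.10.9. The scaling was tested on simulated data. The minimum was a mean of 50 counts for replicate ratios and a mean of 1 TPM for quantification ratios, and a 2-fold difference was counted. Values are given per library or as mean ± SD, and no p-value was computed. Stretches of 31 bases, on either strand, were compared across all GENCODE M21 transcripts. Of genes outside the lists, those that share the most stretches with a member whose quantifications differ 2-fold were named by rule, and the others named were singled out after their values were seen. Every pathway gene and all members but 1 are named, and that member's own values and 1 promoter sequence are not reported here. Members and lists were chosen with earlier results of these data known. Alternatives changed the quantification, the scaling, the minimum values, the transcripts summed and the libraries.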

Additional observations from a re-analysis of the deposited data

How the results depend on the processing

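In the second quantification the cytosolic median was 22.5 TPM (26.5 in the first), the mitochondrial median 3.20 (3.62), the median log2 ratio of cytosolic to mitochondrial genes 2.80 (2.96) and the median leading share 82.1% (85.1%). With the authors' posterior mean TPM the mitochondrial median was 4.13 and the log2 ratio 2.68. Rescaled without mitochondrial-encoded and rRNA genes, the medians were 31.1 and 4.26 TPM. With protein-coding transcripts only, chosen after seeing the data for the levels, the medians were 23.1 and 2.88 TPM, the log2 ratio 3.28, and 0 members differed 2-fold between quantifications. The Lars2 log2 ratio of the second to the first quantification turned from 2.76 to -0.046 with coding transcripts only, and was 2.99 when centred on the median of all genes. The log2 ratio of cytosolic to mitochondrial genes was 3.01 without leucine and 2.65 on log2(TPM + 1). The leading share was 83.9% for members at 5 TPM or more. At 10 TPM, 19 members were counted in place of 35. Between replicates, 1 member was 2-fold apart with no count minimum (Ears2), and 2 (Aars2 and Tars2) were 1.5-fold apart under the minimum of 50 counts.

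Leaving out each library in turn, the cytosolic median ranged from 26.1 to 27.6 TPM, the mitochondrial median from 3.38 to 3.84, the log2 ratio from 2.81 to 2.89, the leading share from 85.1% to 86.3%, and the Lars2 ratio from 2.58 to 2.88. With either library alone, 35 members were at 1 TPM, the cytosolic gene was higher for 15 amino acids and 1 member differed 2-fold between quantifications. Of the alternatives, 36 of 60 left the value within the spread of the replicates or within 1.5 times the count. No paired analysis was possible because there is 1 group. The number of libraries limits the precision, and levels under 50 counts (Ears2, Mars2 and Pars2) limit the widest ratios.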
